A study of Mus musculus with 5 samples.

Results

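The 5 genes Cd4, Cd8a, Cd8b1, Zbtb7b and Runx3 encode the coreceptors of T cells and the factors that decide between them. They were taken by symbol from the count table, where all 5 are among 18767 genes, and were followed over the authors' 17 clusters and over 5 libraries. Each cell was also scored for whether it held at least 1 UMI (unique molecular identifier, a counted transcript) of Cd4, of Cd8a or Cd8b1, of both, or of neither. The 5 genes were detected in very different shares of the 10275 cells. Cd4 had 8314 UMIs and was seen in 39.6% of cells, Cd8a had 18347 UMIs in 31.4%, and Cd8b1 had 11006 UMIs in 31.1%. Runx3 had 5271 UMIs in 31.5% of cells, while Zbtb7b, with 862 UMIs in 7.40%, was the sparsest.

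The cells were CD45+ cells sorted from the thyroids of male and female NOD.WT mice, an autoimmunity-prone strain, that were 4 to 6 weeks old when treatment began. The treated animals received antibodies against PD-1 (clone RPM1-14) and CTLA-4 (clone 9D9) intraperitoneally for 4 weeks (immune checkpoint inhibition, ICI, at 10 mg/kg per dose), and the control animals received isotype antibodies (clones 2A3 and MPC11). The series counts 16 ICI and 10 isotype mice, pooled into 4 ICI libraries (ICI 1 to ICI 4) and 1 isotype library, and the labels do not give the number of mice behind each. The animals were perfused with PBS, and the thyroids were digested with collagenase and passed through a 40 µm filter.

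The libraries were of unequal depth and did not form 1 homogeneous group. ICI 1 to ICI 4 held 1523, 1219, 1163 and 5018 cells with a median of 1753, 2844, 3567 and 4321 UMIs per cell, and the isotype library held 1352 cells with a median of 3621.5. ICI 4 and the isotype library resembled each other in 3 ways that treatment does not share. All of their cells held a UMI of Ptprc, which encodes CD45, against 82.1% to 92.3% of cells in ICI 1 to ICI 3. Xist had 4 and 0 UMIs in ICI 4 and the isotype library, against 614 to 2563 in ICI 1 to ICI 3, and the globin gene Hbb-bs had 26385 and 3218 UMIs, against 0 in ICI 1 to ICI 3. ICI 2 and ICI 3 shared 140 cell barcodes, whereas no other pair shared more than 12. The labels give ICI 2 and ICI 3 titles that differ only in a final letter and do not say whether they came from separate suspensions. Counts of libraries, SDs and tests below take them as separate samples, so p-values may be too small. Tg, which encodes the thyroid hormone precursor, was seen in 0.525% to 6.58% of cells.

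CD4 and CD8 are coreceptors that sit beside the T cell receptor. CD4 binds MHC class II and marks helper and regulatory T cells, and CD8, built from an alpha chain (Cd8a) and a beta chain (Cd8b1), binds MHC class I and marks cytotoxic T cells. Immature thymocytes carry both coreceptors and keep 1 after positive selection. Zbtb7b encodes ThPOK, the zinc finger repressor that commits thymocytes to the CD4 lineage and silences CD8 and cytotoxic genes. Runx3 encodes a Runt-domain factor that silences Cd4 and Zbtb7b in the CD8 lineage, and it also acts in natural killer cells and other innate lymphocytes. Cd8a is transcribed as well in some dendritic cells and in intraepithelial lymphocytes, and in mice CD4 is found on some macrophages and dendritic cells.

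The genes lie on 3 chromosomes (build mm10, GENCODE M21 models). Cd8b1 at chr6:71322788-71337494 and Cd8a at chr6:71373427-71379173 are neighbours on the plus strand, with 35933 bases between them. Cd4 lies elsewhere on the same chromosome, at chr6:124864692-124888221 on the minus strand. Zbtb7b lies at chr3:89377644-89394776 on the minus strand and Runx3 at chr4:135120652-135177990 on the plus strand. RefSeq promoters (build GRCm38.p6) were matched for Cd8a, Zbtb7b and Runx3, and not for Cd4 and Cd8b1. They are shown because RUNX proteins bind the core TGTGGT, and they run from 250 bases before to 50 bases after a transcription start, 5′ to 3′ on the gene's strand, with each TGTGGT core, on either strand, in capitals. The promoters are chr6:71373177-71373476 for Cd8a, chr3:89387622-89387921 for the Zbtb7b start with a core, and chr4:135120395-135120694 for the Runx3 start with a core.
Cd8a: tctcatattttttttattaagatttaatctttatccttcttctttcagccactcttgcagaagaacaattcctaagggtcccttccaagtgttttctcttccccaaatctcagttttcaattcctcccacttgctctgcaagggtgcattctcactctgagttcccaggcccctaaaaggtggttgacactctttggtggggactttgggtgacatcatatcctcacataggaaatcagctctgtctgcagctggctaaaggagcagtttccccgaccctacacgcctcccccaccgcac
Zbtb7b: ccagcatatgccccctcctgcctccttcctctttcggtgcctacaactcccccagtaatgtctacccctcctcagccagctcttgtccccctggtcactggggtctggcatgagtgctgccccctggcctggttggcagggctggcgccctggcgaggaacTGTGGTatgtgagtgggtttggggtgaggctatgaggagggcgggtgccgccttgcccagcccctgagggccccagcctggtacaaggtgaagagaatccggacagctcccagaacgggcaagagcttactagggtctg
Runx3: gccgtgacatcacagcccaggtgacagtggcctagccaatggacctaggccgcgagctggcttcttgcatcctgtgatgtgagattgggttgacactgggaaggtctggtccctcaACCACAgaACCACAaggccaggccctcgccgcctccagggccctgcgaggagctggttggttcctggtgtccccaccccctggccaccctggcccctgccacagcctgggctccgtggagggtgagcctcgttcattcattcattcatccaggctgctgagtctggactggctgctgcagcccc
The Cd8a window held 0 cores, the Zbtb7b window 1 at position -89 from the start, and the Runx3 window 2 at positions -134 and -126. Of all 32851 promoter windows of this length, 5506 (16.8%) held the core. The other listed start of Zbtb7b and that of Runx3 held 0.

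Cd4 was highest in thymocyte-like and CD4 T cell clusters and spread over more clusters than the CD8 chains. Levels are in CPM, the UMIs of a gene scaled to a fixed total of UMIs, of a cluster's cells in a library, averaged over the libraries with at least 20 cells of the cluster, with the SD over libraries. Cluster 11, thymocyte-like with 8 of 10 thymocyte markers raised at least 1.5-fold over all other cells, had 658 ± 211 CPM of Cd4, and 68.3% of its cells held a UMI. Cluster 4, regulatory T-like with Foxp3 and Ctla4 among its leading genes, had 412 ± 129 CPM (57.3% of cells). Cluster 0, led by Igfbp4, St8sia6 and S1pr1 with 4 of 6 CD4 T cell markers raised, had 337 ± 44.9 CPM (64.0% of cells). Cluster 1, effector T cells led by Gzmk, Ccl5 and Ifng, still had 256 ± 45.1 CPM (45.3% of cells).

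Between these stood cluster 13, unnamed and shallow with a median of 847.5 UMIs per cell (349 ± 40.4 CPM), thymocyte-like cluster 2 (345 ± 71.7 CPM) and heat-shock cluster 9 (293 ± 135 CPM). Lower levels were seen in clusters 12 (142 CPM), 5 (127 CPM), 7 (73.6 CPM), 16 (38.3 CPM), 15 (26.3 CPM), 8 (24.3 CPM) and 14 (19.5 CPM). At the low end, Cd4 had 40.6 CPM in the gamma-delta T-like cluster 6, 29.4 CPM in cluster 3 and 9.44 CPM in cluster 10, which resembles type 2 innate lymphoid cells. In the order of the 17 clusters, neighbours overlapped in their ranges over libraries except for cluster 1 and the cluster below it, cluster 12, whose cells cycle and carry Tnfrsf9. Cluster 3 is named by its leading genes Dapl1, Itgae and Ccr7. Its Cd4 CPM was 20.3, 0, 21.2 and 2.39 in ICI 1 to ICI 4 and 103 in the isotype library. The isotype library was the highest there and lay above every ICI library.

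Cd8a and Cd8b1 shared their top clusters. Cluster 11 had 1763 ± 459 CPM of Cd8a and 1366 ± 189 CPM of Cd8b1, with UMIs in 92.8% and 87.0% of its cells. Cluster 3 had 943 ± 134 CPM of Cd8a and 747 ± 195 CPM of Cd8b1 (90.8% and 85.6% of cells). Both chains were thus seen in most cells of these 2 clusters, and in a minority of effector cluster 1, with 392 ± 106 CPM of Cd8a in 26.1% of cells and 26.0% of cells holding Cd8b1. The cycling thymocyte-like cluster 5, led by Rrm2 and Top2a, had 485 ± 163 CPM of Cd8a in 83.9% of its cells.

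Among T-lineage clusters, 0, 4 and 6 were low in Cd8a, with 57.6, 68.4 and 49.7 CPM. The remaining levels of Cd8a were 621 CPM in cluster 9, 254 in cluster 13, 193 in cluster 12, 126 in macrophage-like cluster 7, 89.8 in cluster 16, and 33.3, 31.1, 29.6 and 17.9 in clusters 8, 14, 15 and 10, the lowest. The range of cluster 11 over libraries lay above that of cluster 3 for both chains, and that was the only gap between neighbours for Cd8a. For Cd8b1 there were 4 such gaps, between clusters 11 and 3, 3 and 9, 5 and 13, and 13 and 12. Cluster 9, led by the heat-shock gene Hspa1a, comes almost wholly from ICI 4. Its 621 CPM of Cd8a averages 2 libraries at 210 and 1032 CPM. With all cells of cluster 9 pooled the level was 251 CPM, with a UMI in 23.8% of cells. The level of Cd8a in cluster 2, the thymocyte-like cluster with the fewest of these markers (4 of 10), was 375, 29.6, 596 and 592 CPM in ICI 1 to ICI 4 and 917 CPM in the isotype library, an SD of 327 around its mean of 502.

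The level of Zbtb7b was 0 where the CD8 chains were highest. None of 879 cells of cluster 3 and none of 347 cells of cluster 11 held a UMI, which allows shares of up to 0.341% and 0.865% at 3 counts. Among T-lineage clusters with any, its level was 45.2 ± 26.6 CPM in cluster 4 (8.59% of cells), 43.8 CPM in cluster 9 (18.7%), 40.0 ± 29.9 CPM in effector cluster 1 (11.8%) and 37.4 ± 25.5 CPM in cluster 0 (8.54%). In the gamma-delta T-like cluster 6 it was 18.7 ± 4.43 CPM. Unnamed cluster 13 and thymocyte-like cluster 2 had the highest means, 82.1 ± 75.4 and 52.5 ± 51.1 CPM, and their SDs were nearly as large as the means. The SDs span more than the distances between the clusters, and each of these clusters overlapped its neighbours over libraries. Outside the T cells, Zbtb7b was seen in macrophage-like cluster 7 (22.5 CPM) and cluster 10 (19.4 CPM), with 16.1 and 12.4 CPM in clusters 14 and 8. Cluster 12, whose cells cycle and carry Tnfrsf9, had 17.2 CPM. Zbtb7b was low in cycling thymocyte-like cluster 5 (6.58 CPM, 2.11% of cells) and in clusters 16 and 15 (6.08 and 2.19 CPM).

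Runx3 was broad and did not follow Cd8a. Its level was 223 ± 46.3 CPM in natural killer-like cluster 8 (53.0% of cells), led by Ncr1, 185 ± 47.7 CPM in effector cluster 1 (40.7%), 172 ± 73.1 CPM in cluster 6 (51.2%) and 148 ± 44.0 CPM in cluster 3 (45.4%). Unnamed cluster 13 had the highest mean at 339 ± 232 CPM. The level was 171, 143 and 129 CPM in clusters 15, 16 and 10, 112 in cluster 7, 110 in cluster 0 (19.7% of cells), 97.0 in cluster 4, and between 68.2 and 92.4 in clusters 2, 12, 9, 14 and 5. Cluster 11, the top cluster for both CD8 chains, was the lowest of all for Runx3, with 12.6 ± 16.9 CPM in 2.31% of cells. The neighbours in the order of Runx3 levels all overlapped in their ranges over libraries. Clusters 3 and 11 therefore had Zbtb7b at 0 in common and stood far apart for Runx3.

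**Figure D1:**
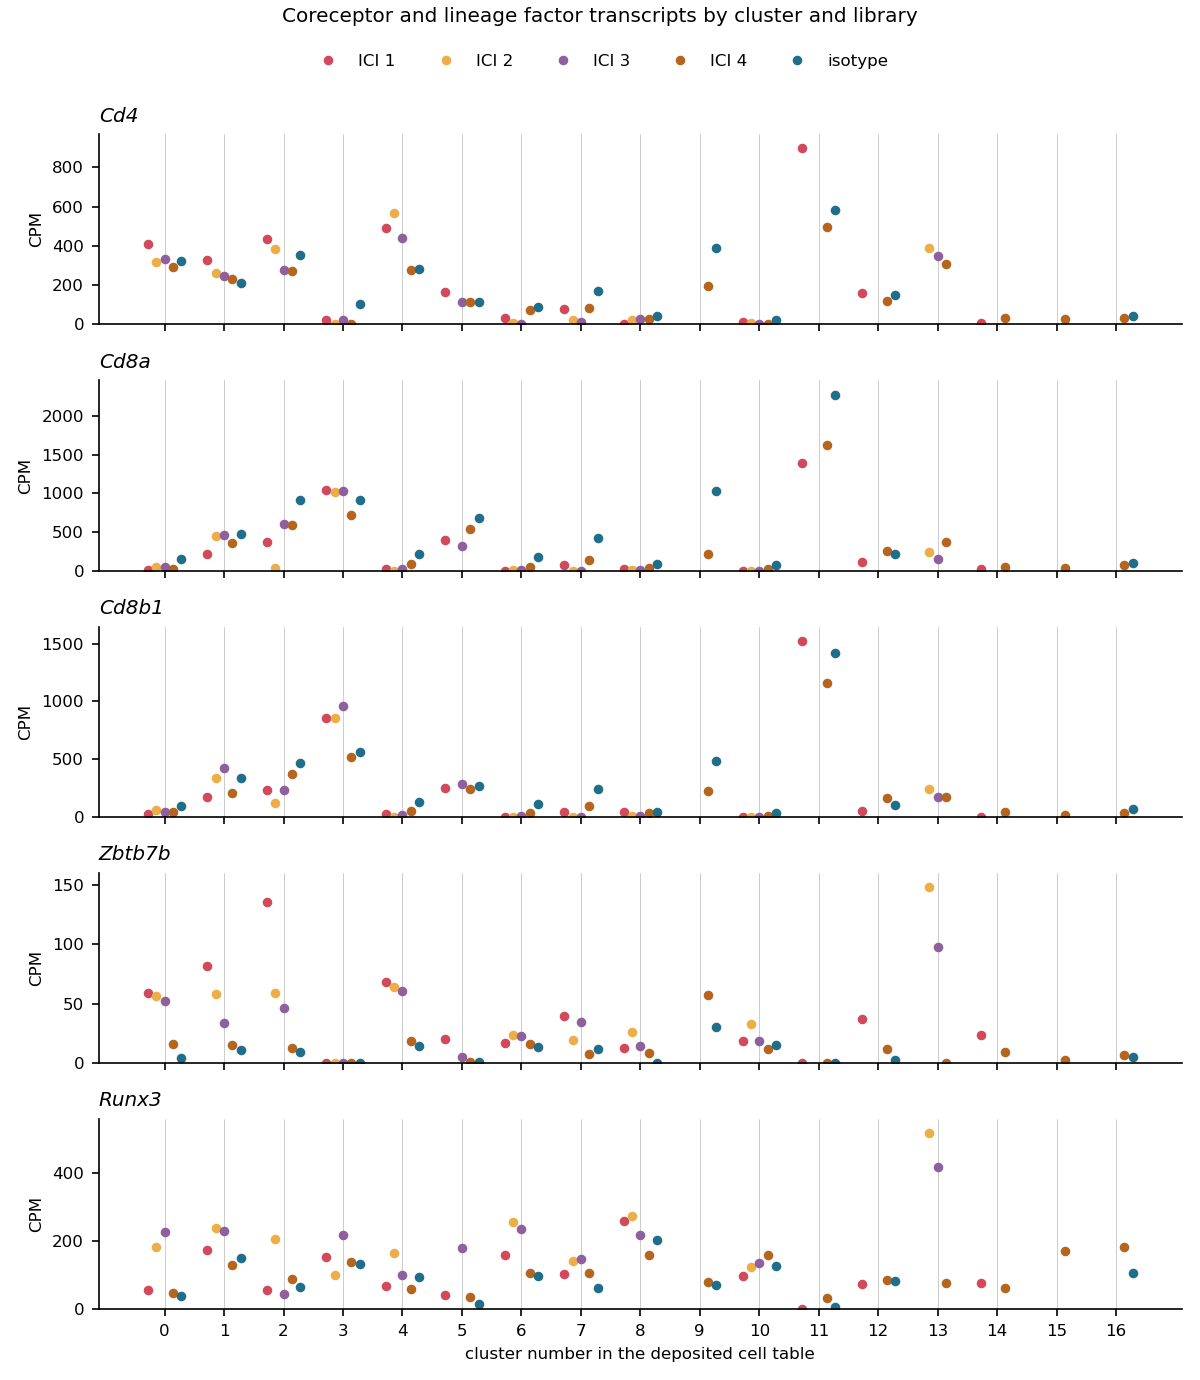
Level of each gene in CPM (vertical axes, linear, a panel per gene) in each of the authors' clusters (horizontal axis), 1 point per library with at least 20 cells. Cd8a and Cd8b1 peak in clusters 11 and 3, where Zbtb7b is at 0, and Runx3 is lowest in cluster 11.

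The clusters' gene profiles gave each gene a set of closest companions, by Pearson's r of log2(CPM + 10) over the 17 clusters among 6939 genes with at least 50 CPM in 1 cluster. The values are descriptions, since clusters share libraries and depth. Cd8a and Cd8b1 were each other's closest gene, with r = 0.98, followed for Cd8a by Rmnd5a (0.81), Themis (0.80), a thymocyte selection gene, Aagab (0.78) and Tubb2b (0.77), and for Cd8b1 by Themis (0.82), Rmnd5a (0.80), Aagab (0.78) and Ntrk3 (0.77). Cd4 was closest to Cd28 (0.83), the costimulatory receptor, then to Lims1 (0.82), Cd5 (0.82), an inhibitory receptor of T cells, Stx6 (0.81) and Itga6 (0.80). Zbtb7b was closest to Ncoa3 (0.84), Arhgap27 (0.83), Cd40lg (0.82), the helper ligand for CD40, Mink1 (0.81) and Slc25a12 (0.81). Runx3 was closest to Sema4a (0.87), Ahnak (0.83), the class I gene H2-K1 (0.82), Cyth4 (0.81) and Myo1f (0.80).

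Over the same clusters r was 0.42 between Cd4 and Zbtb7b, -0.40 between Cd8a and Runx3, 0.44 between Zbtb7b and Runx3, and 0.51 between Cd4 and Cd8a. A lower pseudocount of 1 CPM left 4 of the 5 companions of Cd4, Cd8a, Cd8b1 and Runx3 in place and 0 of the 5 of Zbtb7b.

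Cells with both coreceptors lay mostly in the thymocyte-like clusters 2, 5 and 11. Of 1415 cells with UMIs of Cd4 and of a CD8 chain, 978 (69.1%) lay there, 276 (19.5%) in the T-lineage clusters 0, 1, 3, 4, 6 and 9, and 161 (11.4%) elsewhere. At least 2 UMIs of each coreceptor were held by 712 of them (50.3%). Within the thymocyte-like clusters 45.3% of cells held both (95% Clopper-Pearson interval 43.2% to 47.4%, counting error only), against a product of the separate shares of 44.3%. Clusters 11 and 5 had 67.4% and 62.0% of such cells and cluster 2 had 24.3%. Pooled over the thymocyte-like clusters, co-detection was close to what the 2 detection rates give when multiplied. Cluster 2 by itself lay somewhat below its own product.

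In the T-lineage clusters the coreceptors were found together less often than that product. Both were found in 4.79% of cells (4.26% to 5.38%), against a product of 12.3%, a ratio of 0.39. The gap was widest in effector cluster 1, where Cd4 was in 45.3% of cells and a CD8 chain in 29.7%, yet both were found in 2.83% (2.01% to 3.86%) against a product of 13.5%. In cluster 9 it was 8.81% against 16.4%, and in cycling cluster 12, outside the set, 12.9% against 20.5%. In clusters 0, 3 and 4 no such gap appeared, with 7.58% against 7.73%, 2.05% against 2.30%, and 5.76% against 6.74%. In cluster 6 cells with both exceeded the product, at 1.93% against 0.283%.

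The libraries differed in this. In the T-lineage clusters the share with both was 3.12%, 0.528%, 0.427% and 5.95% in ICI 1 to ICI 4, and 17.8% in the isotype library. The ratios to the product were 0.52, 0.09, 0.07 and 0.35 in the ICI libraries and 0.95 in the isotype library. The isotype library was thus the only 1 of the 5 near the product, and it held 342 cells of these clusters. Cells thinned to 1000 UMIs each, leaving out 617 shallower cells (303, 101, 159 and 33 in ICI 1 to ICI 4 and 21 in the isotype library), gave 1.39%, 0.271%, 0.147% and 0.970% in the ICI libraries and 5.26% in the isotype library.

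Transcripts of 12 double-positive thymocyte genes, such as Rag1, Dntt and Arpp21, moved with that order. Summed over the list in the T-lineage clusters they came to 152, 58.3, 50.4 and 208 CPM in ICI 1 to ICI 4 and 770 CPM in the isotype library, with 10, 5, 5 and 12 genes seen in the ICI libraries and 11 in the isotype library. Rag1 had 2, 0, 0 and 13 UMIs in ICI 1 to ICI 4 and 92 in the isotype library. Transcripts of 8 macrophage genes in the same clusters came to 30.8, 18.3, 16.1 and 34.9 CPM in ICI 1 to ICI 4 and 339 CPM in the isotype library. The macrophage transcripts lay mostly in cluster 6, with 686 CPM in ICI 4 and 1307 CPM in the isotype library there. The part of thymocyte or macrophage RNA in the isotype co-detection was not tested.

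In clusters of cells that should lack both coreceptors, few cells held both. Cluster 10 had both in 2 of 377 cells (0.531%) and B cell-like cluster 14 in 2 of 160 (1.25%), at median depths of 3562 and 3692.5 UMIs. Cd4 and a CD8 chain were each seen in 2.92% and 2.39% of cluster 10 cells, and in 6.25% and 8.75% of cluster 14 cells. The 2 cells of cluster 10 came from the isotype library (1.71% of its 117 cells there) and those of cluster 14 from ICI 4. ICI 2 and ICI 3 had 0 of 60 and 0 of 51 cells with both in cluster 10, too few cells to measure a background as low as their shares in the T-lineage clusters.

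Cells with both coreceptors were the deepest. Their median was 6345 UMIs, against 4146 in cells with a CD8 chain only, 3588 in cells with Cd4 only and 3150 in cells with neither. The 161 such cells outside the T-lineage and thymocyte-like clusters had a median of 14530 UMIs. Macrophage-like cluster 7 held 74 of them, 11.9% of its cells against a product of 3.49%. There, over the pooled libraries, the coreceptors went with Cd3 transcripts, which encode the invariant chains of the T cell receptor complex. Its 204 cells with a UMI of Cd3d, Cd3e or Cd3g (median 9606 UMIs) held Cd4 in 49.5% and Cd8a in 45.1%, and its 417 cells without (median 3535 UMIs) held Cd4 in 6.24% and Cd8a in 1.20%. By library Cd4 was in 31.7% and 66.7% of the cells with Cd3 in ICI 1 and ICI 4 and in 73.4% in the isotype library, which held 94 of the 204, against 9.52%, 4.76% and 2.86% of the cells without. ICI 3 did not show it, with Cd4 in 3.85% of 26 cells with Cd3 and 3.68% of 136 without, and Cd8a in 0 of both, and ICI 2 had too few cells with Cd3. Dendritic-like cluster 16 had Cd4 in 60.5% of its 38 cells with Cd3 and in 1.85% of those without. No doublet caller was run, and the share of droplets with more than 1 cell was not tested.

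**Figure D2:**
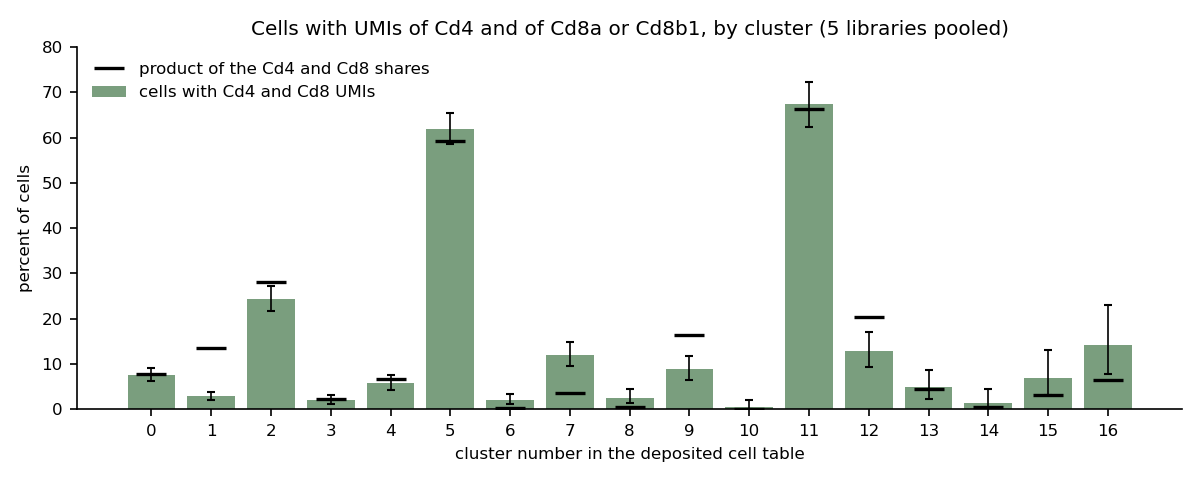
Percent of cells with UMIs of both Cd4 and a CD8 chain in each cluster over the 5 pooled libraries (bars, with 95% Clopper-Pearson intervals) and the product of the separate shares (black dashes). Clusters 5 and 11 sit at 62.0% and 67.4% near their products, and effector cluster 1 sits at 2.83% under a product of 13.5%.

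The CD8 chains were found together in most cells. Cd8b1 was seen in 83.6% of 3225 cells with Cd8a, and Cd8a in 84.5% of 3192 cells with Cd8b1. The share was 93.2% of Cd8a cells in cluster 5, 88.1% in cluster 3, 85.8% in cluster 1 and 51.3% of 78 cells in cluster 0. UMIs of Cd8b1 per UMI of Cd8a were 0.73, 0.79, 0.88 and 0.60 in ICI 1 to ICI 4 and 0.51 in the isotype library, the lowest of the 5. Among clusters it was lowest in cluster 5 (0.45), was 0.68 in cluster 11 and 0.73 in cluster 3, and was highest in cluster 0 (1.25). The ratio depends on how well each transcript is captured and so compares samples, not genes.

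Among cells with a Cd3 transcript the 4 coreceptor classes took different shares in the ICI libraries and the isotype library. Cd3 transcripts were seen in 83.1%, 79.8%, 82.4% and 96.8% of cells in ICI 1 to ICI 4 and in 88.2% in the isotype library. Of these cells, 39.0%, 28.8%, 25.4% and 28.6% held Cd4 only in ICI 1 to ICI 4, against 14.8% in the isotype library. All 4 ICI libraries were above the isotype library, with a mean of 30.4% ± 5.91 (SD, n = 4) and a difference of 15.7 percentage points. The exact two-sided permutation p was 0.2, the smallest that 4 libraries against 1 can give (adjusted over 4 classes, 0.4). With every cell thinned to 1000 UMIs the shares were 23.9%, 14.3%, 13.4% and 12.7% in ICI 1 to ICI 4 and 9.57% in the isotype library, and the difference shrank to 6.5002 points (exact permutation p = 0.4).

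Cells with both coreceptors went the other way. They were 6.09%, 0.411%, 0.418% and 18.3% of Cd3 cells in ICI 1 to ICI 4 and 36.7% in the isotype library. All 4 ICI libraries were below the isotype library, but they were split among themselves, with ICI 4 well above the other 3 (mean 6.31% ± 8.45, SD, n = 4, a difference of -30.3 percentage points, exact permutation p = 0.2, adjusted 0.4). Thinned, they were 2.02%, 0.229%, 0.122% and 4.01% in ICI 1 to ICI 4 and 14.7% in the isotype library, a difference of -13.1 points. Left with the cells outside clusters 2, 5 and 11, the shares with both were 3.26%, 0.427%, 0.328% and 6.85% in the ICI libraries and 24.1% in the isotype library.

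Cells with a CD8 chain only were 11.3%, 15.7%, 18.4% and 30.7% in ICI 1 to ICI 4 and 25.7% in the isotype library, which lay within the ICI range (difference -6.65 points, exact permutation p = 0.6, adjusted 0.6). Cells with neither were 43.6%, 55.1%, 55.8% and 22.4% in ICI 1 to ICI 4 and 22.9% in the isotype library (difference 21.3 points, exact permutation p = 0.4, adjusted 0.533). Without thinning, ICI 4 lay nearer to the isotype library than to the other ICI libraries for cells with neither. Set against the isotype library by itself, ICI 4 was 5.02 points higher for CD8 only and 0.548 points lower for neither, the opposite directions to the means. A share also depends on depth, since a shallow cell more often shows neither, and ICI 1 was the shallowest library. At the equal depth of 1000 UMIs both directions turned for ICI 4. CD8-only cells were then 11.4%, 14.2%, 16.0% and 27.7% in ICI 1 to ICI 4 and 32.1% in the isotype library, so that 4 of 4 ICI libraries were lower (difference -14.8 points, exact permutation p = 0.2, adjusted 0.267). Cells with neither were 62.7%, 71.3%, 70.5% and 55.6% in ICI 1 to ICI 4 and 43.7% in the isotype library, so that 4 of 4 were higher (21.3 points, exact permutation p = 0.2, adjusted 0.267).

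**Figure D3:**
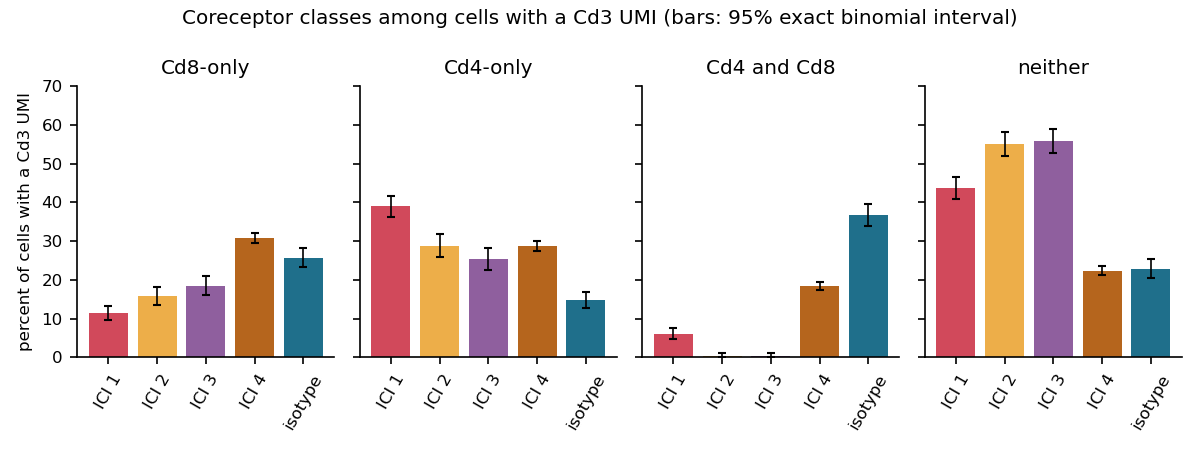
Percent of cells with a Cd3 UMI in each coreceptor class, 1 panel per class and 1 bar per library with its 95% Clopper-Pearson interval, ICI libraries left of the isotype library. Cells with both reach 36.7% in the isotype library and 0.411% to 18.3% in the ICI libraries, and in these unthinned cells ICI 4 lies near the isotype library for neither (22.4% and 22.9%).

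Within the T-lineage clusters, CD8-only and Cd4-only cells were compared as summed counts per library, with the library as a block, among cells with a Cd3 transcript. Zbtb7b was lower and Runx3 higher in CD8-only cells. The coreceptor genes defined the classes and were left out of the test. edgeR's quasi-likelihood test called 526 of 7239 genes at an adjusted p under 0.05 (7.27% of genes, with 2.87% higher and 4.39% lower). Both factors were among them. Without ICI 4 the count was 232. The 5 libraries are pools, so p-values measure the spread between these libraries only. With ICI 1 to ICI 3 summed to 1 sample, 353 genes passed, with Zbtb7b at -2.61 (adjusted p = 0.000686) and Runx3 at 0.92 (adjusted p = 0.0213). Shares of cells given beside these tests count every cell of a class, with or without a Cd3 transcript.

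Zbtb7b had 4.28, 17.3, 11.5 and 3.39 CPM in CD8-only cells of ICI 1 to ICI 4 and 0 in those of the isotype library, against 67.5, 76.5, 52.7 and 25.3 CPM in Cd4-only cells of ICI 1 to ICI 4 and 15.003 in those of the isotype library. It was lower in CD8-only cells in 5 of 5 libraries, although the lowest Cd4-only value (15.003) lay below the highest CD8-only value (17.3), from another library. The fold change was -2.59 on the log2 scale (SE 0.25, edgeR adjusted p = 5.07e-06). By cells, 2.01% of 1445 CD8-only cells held Zbtb7b, against 12.5% of 2096 Cd4-only cells. Without the library block the fold change was -2.73 with an adjusted p of 0.145, the highest over its alternatives, and with clusters 3 and 9 left out it was -1.58.

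Runx3 had 146, 219, 237 and 135 CPM in CD8-only cells of ICI 1 to ICI 4 and 125 in those of the isotype library, against 96.5, 211, 210 and 67.1 CPM in Cd4-only cells of ICI 1 to ICI 4 and 37.5 in those of the isotype library. The direction held in 5 of 5 libraries, and the ranges of the 2 classes overlapped because ICI 2 and ICI 3 were high in both. The fold change was 0.67 on the log2 scale (SE 0.16, edgeR adjusted p = 0.0139). Runx3 UMIs were found in 44.5% of CD8-only and 26.1% of Cd4-only cells. The call rests on which clusters and libraries are pooled. In effector cluster 1 by itself the change was 0.05 (adjusted p = 0.928), without clusters 3 and 9 it was 0.61 (0.0754), without ICI 4 it was 0.47 (0.197), and without the block 0.56 (0.9995).

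Inside single clusters Zbtb7b was seen in fewer CD8-only cells. Runx3 was higher in CD8-only cells of clusters 0, 4, 9 and 12, and at nearly equal levels in both classes of effector cluster 1. There 4.71% of 361 CD8-only cells held Zbtb7b, against 15.3% of 570 Cd4-only cells. Runx3 was at 198 CPM in CD8-only cells and 186 CPM in Cd4-only cells of cluster 1 over the pooled libraries. It was in 50.1% of those CD8-only cells, with a median of 3627 UMIs, and in 41.9% of the Cd4-only cells, with a median of 3208. In cluster 9 Zbtb7b was in 5.26% of CD8-only cells against 23.9% of Cd4-only cells, and in cycling cluster 12 in 0 of 86 CD8-only cells against 23.9% of 117 Cd4-only cells. Pooled over libraries, Runx3 in CD8-only and Cd4-only cells was at 141 and 65.2 CPM in cluster 9 and 109 and 71.7 CPM in cluster 12. It was at 99.5 and 69.03 CPM in cluster 4 and 88.3 and 66.8 CPM in cluster 0. The order was the opposite in thymocyte-like cluster 5, with 33.9 CPM in CD8-only and 103 CPM in Cd4-only cells. These differences in single clusters were not tested. Cells of T-lineage clusters that held both coreceptors had Zbtb7b in 9.06%. The shares of Runx3 with and without Zbtb7b overlapped in their intervals. Runx3 was found in 30.8% of the 504 T-lineage cells with Zbtb7b (95% interval 26.7% to 35.0%) and in 32.5% of the others (31.3% to 33.8%).

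**Figure D4:**
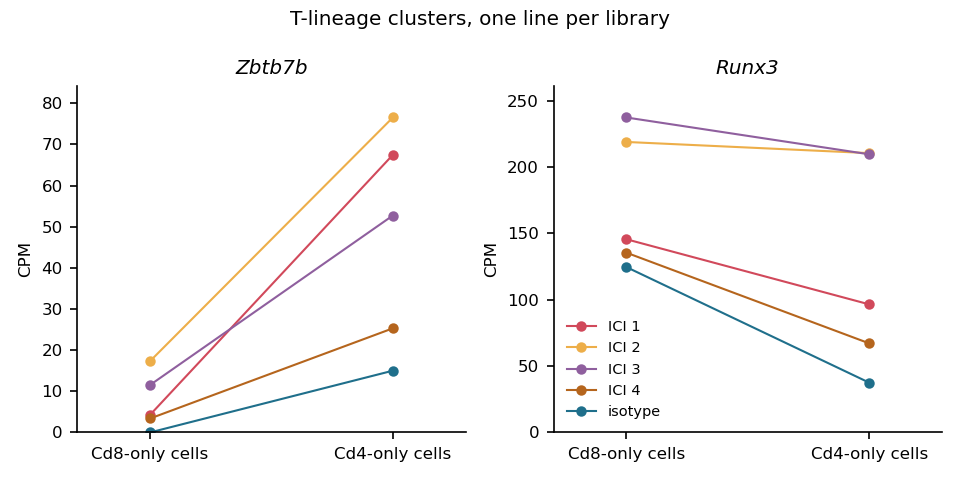
Zbtb7b and Runx3 in CPM (vertical axes) in CD8-only and Cd4-only cells of the T-lineage clusters, 1 line per library joining its 2 classes. Zbtb7b is lower in CD8-only cells in 5 of 5 libraries, and Runx3 is higher in 5 of 5.

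The other genes of the 2 lineages separated strongly between the classes, which were spread unequally over the clusters. With or without a Cd3 transcript, 829 CD8-only cells lay in cluster 3 and 361 in cluster 1. Cd4-only cells lay mostly in clusters 0, 1 and 4, with 879, 570 and 438 cells. Of the other genes named for this comparison, 21 still passed with clusters 3 and 9 left out and 9 no longer did. Of 15 tested cytotoxic genes 13 rose in CD8-only cells and 0 fell (median 2.12 on the log2 scale, against -0.004 over all tested genes), and of 12 tested helper genes 11 fell and 0 rose (median -2.13). Among named genes on the same side in every library, receptor segments left out, which is the rule for every largest change given from here on, the top rises were in natural killer receptor genes. Klrc1, an inhibitory receptor chain, averaged 260 ± 168 CPM in CD8-only cells and 9.61 ± 10.8 CPM in Cd4-only cells (SD, n = 5 libraries, 4.96 on the log2 scale, SE 0.26, adjusted p = 4.35e-09). Its partner Klrd1 and the activating receptor Klrk1 rose by 3.96 and 3.68. Eomes, a T-box factor of cytotoxic cells, rose by 3.58, the pore-forming Prf1 by 3.29, the integrin Itgae by 2.76 and the chemokine Ccl5 by 2.56. Cd7, Atp8b4 and Tm6sf1 rose by 2.52, 2.49 and 2.41. All 10 were higher in 5 of 5 libraries.

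Among the genes that fell, Cd40lg was foremost, with 18.4 ± 14.0 CPM in CD8-only cells and 274 ± 188 CPM in Cd4-only cells (SD, n = 5, -3.95 on the log2 scale, SE 0.16, adjusted p = 2.12e-10). The costimulatory receptor Tnfrsf4 fell by 3.23, Tiam1 by 2.90, the chemokine receptor Ccr4 by 2.75, the factor Maf by 2.61, Tbc1d4 by 2.61, Asb2 by 2.60, Tnfsf11 (RANK ligand) by 2.50 and Foxp3, the factor of regulatory T cells, by 2.39. By size of change Zbtb7b stood among these, as the 8th of the 10 named genes that fell, each lower in 5 of 5 libraries.

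Genes known from lineage choice in the thymus moved less. Of 23 tested, 2 rose and 3 fell in CD8-only cells (median -0.05). Myb rose by 1.16, while Gata3, which acts upstream of Zbtb7b in CD4 commitment, fell by 1.03, Runx1 by 0.997, and Socs1, an inhibitor of cytokine signalling, by 0.53. Of 16 receptor signalling genes 5 fell and 0 rose, among them Cd5 (-1.01), Cd28 (-0.70), Rasgrp1 (-0.52) and Lcp2 (-0.43). Of 12 selection and maturation genes 5 fell and 0 rose, including the receptor-induced genes Egr1 (-1.07) and Nr4a1 (-1.03) and Itm2a (-1.04, lower in 3 of 5 libraries). Ccr9, a gut-homing and thymocyte receptor, was the 1 of 4 tested double-positive thymocyte genes to rise (2.74), and it was higher in 3 of 5 libraries and lower in 2. In cluster 1 by itself Itm2a was 0.81 higher rather than lower (adjusted p = 0.0535).

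In the thymocyte-like clusters the comparison could be made in ICI 1, ICI 4 and the isotype library, and the classes fell out differently. Cd4-only cells stood apart from cells with both in many genes and CD8-only cells in few. Against cells with both, Cd4-only cells had 1085 of 6479 genes past the threshold (16.7%, with 7.72% higher and 9.03% lower). CD8-only cells had 93 of 8757 (1.06%, with 0.548% higher and 0.514% lower). Between CD8-only and Cd4-only cells 593 of 6447 genes passed (9.2%, with 4.67% higher and 4.53% lower). The classes were spread unequally over the clusters, with 248 and 39 Cd4-only cells in clusters 2 and 5, 332, 215 and 103 CD8-only cells in clusters 2, 5 and 11, and 245, 499 and 234 cells with both there. Their median depths were 3351 UMIs in Cd4-only cells, 3116.5 in CD8-only cells and 6423 in cells with both. The part of cluster and depth in these comparisons was not tested. The counts shift with the libraries, with 2 calls left between CD8-only and Cd4-only cells without the isotype library and 30 without ICI 4.

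Zbtb7b was too sparse for the test in these clusters. It had 12.3 and 0.567 CPM in CD8-only cells of ICI 1 and ICI 4 and 0 in those of the isotype library. In Cd4-only cells it had 123 and 16.7 CPM in ICI 1 and ICI 4 and 13.6 in the isotype library. In cells with both it had 0 and 1.57 CPM in ICI 1 and ICI 4 and 2.33 in the isotype library. Cd4-only cells were thus the highest in each of the 3 libraries, and by cells 11.4% of them held a UMI (7.96% to 15.6%), against 0.462% of CD8-only cells (0.0953% to 1.34%) and 1.43% of cells with both (0.785% to 2.39%).

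Runx3 passed the threshold in none of the 3 comparisons with all 3 libraries and low counts filtered out. It had 43.6 and 47.2 CPM in Cd4-only cells of ICI 1 and ICI 4 and 109 in those of the isotype library, against 15.4 and 33.3 CPM in cells with both of ICI 1 and ICI 4 and 20.96 in those of the isotype library (1.19 on the log2 scale, SE 0.41, edgeR adjusted p = 0.0824, range over alternatives 0.0161 to 0.449). It passed in this comparison without ICI 1 (0.94, adjusted p = 0.0161) and with no filter (1.11, adjusted p = 0.0198). In CD8-only cells it had 80.4 and 53.8 CPM in ICI 1 and ICI 4 and 15.3 in the isotype library. That was above the cells with both in 2 of 3 libraries (0.59, SE 0.20, adjusted p = 0.170) and above the Cd4-only cells in the same 2 (-0.32, SE 0.57, adjusted p = 0.760). The isotype library was the exception in both.

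Against cells with both, Cd4-only cells had higher levels of maturation genes and lower levels of receptor rearrangement genes. Of 12 selection and maturation genes 9 rose and 0 fell (median 1.64, against 0.037 over all tested genes). Il7r, the interleukin-7 receptor regained after selection, averaged 330 ± 71.6 CPM in Cd4-only cells and 35.1 ± 6.82 CPM in cells with both (SD, n = 3 libraries, 3.39 on the log2 scale, adjusted p = 0.000219). Itm2a rose by 2.89, Cd53 by 2.75 and the homing receptor Ccr7 by 2.57. Of 10 tested double-positive thymocyte genes 8 fell and 0 rose, among them the recombinase genes Rag2 (-3.88) and Rag1 (-2.89), the terminal transferase Dntt (-3.34) and Arpp21 (-2.69).

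Helper and signalling genes rose with them. Of 8 tested helper genes 6 rose and 0 fell, among them Cd40lg (3.63), Tnfrsf4 (3.59), Izumo1r (3.31) and Tnfrsf18 (2.36). Of 16 signalling genes 10 rose and 0 fell, among them Fyn (1.95), Cd2 (1.72), Cd5 (1.26) and Cd28 (1.01). Of 23 lineage decision genes 5 rose and 5 fell, with Id2 (2.19) and Tox (1.71), which is needed for CD4 lineage development, higher and Myb (-2.01) lower. Sytl2 (4.19), Acvrl1 (4.02), Cish (3.93) and Samhd1 (3.73) had the largest rises. Insl5, at 0 in Cd4-only cells and 41.6 ± 18.5 CPM in cells with both, the histone gene Hist1h2bm (-3.78), the class I-like gene H2-T3 (-3.71) and the cycling gene Ube2c (-3.59) had large falls.

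CD8-only thymocyte-like cells mirrored this against Cd4-only cells. Of 8 tested double-positive thymocyte genes 4 rose and 0 fell, with Dntt at 523 ± 45.5 CPM in CD8-only cells and 75.8 ± 103 CPM in Cd4-only cells (2.92, adjusted p = 0.0318). Gfra1 (3.07), Ly6d (3.05), Pclaf (2.73), a replication gene, and H2-T3 (2.72) were the others of the 5 largest rises. Of 8 helper genes 6 fell and 0 rose, among them Cd40lg (-5.27), Izumo1r (-4.20) and Tnfrsf4 (-4.13), while Asb2 (-4.54) and the myeloid lysozyme Lyz2 (-4.25) completed the 5 largest falls. Transcripts of the 8 macrophage genes summed to 12.3 and 8.21 CPM in CD8-only cells of ICI 1 and ICI 4 and 16.3 CPM in those of the isotype library, against 150 and 41.7 CPM in Cd4-only cells of ICI 1 and ICI 4 and 123 CPM in those of the isotype library. Their part in the result was not tested. Of 23 lineage decision genes 4 rose and 3 fell, of 16 signalling genes 0 rose and 6 fell, and of 12 selection genes 0 rose and 6 fell. The shares of cells called in S or G2/M phase by the authors were 42.6% of CD8-only, 23.8% of Cd4-only and 57.2% of cells with both.

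CD8-only cells differed from cells with both in fewer genes and by smaller amounts. Of 10 tested double-positive thymocyte genes 3 fell and 0 rose, namely Rag2 (-1.58), Rag1 (-0.99) and Arpp21 (-0.56). None of 16 signalling genes passed. Of 8 helper genes Ikzf2 rose (0.77), of 12 selection genes Cd69 rose (0.69), and of 4 cytotoxic genes Ctsw (1.05) and Gzma (0.62) rose and Ccl5 fell (-2.93, lower in 2 of 3 libraries). Srm (1.23), Bcat1 (1.20), Gramd1b (1.19) and Ifrd2 (1.18) rose, and P2rx1 (-1.36), F13a1 (-1.08) and Ptms (-0.996) fell. The globin gene Hba-a1 (2.14) rose the most of the genes higher in 3 of 3 libraries, beside globin transcripts that differed between the classes in ICI 4, where 3 red cell genes summed to 1463 CPM in CD8-only cells and 242 CPM in cells with both. Among genes lower in 3 of 3 libraries the class II chain gene Cd74 (-1.97) fell the most, and it was 0.16 higher in cells thinned to 1000 UMIs. Larger falls, in genes that were not lower in every library, included the class II genes H2-Aa (-3.39) and H2-Ab1 (-3.12), and the thyroid gene Tg fell as well. The macrophage genes summed to 25.6 and 9.58 CPM in cells with both of ICI 1 and ICI 4 and 451 CPM in those of the isotype library, above the CD8-only values in each, and their part in the fall was not tested.

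Between ICI and isotype cells no member passed the threshold with all 5 libraries and low counts filtered out, over all cells or in any set of clusters, with 1 isotype library to compare. With no filter, Cd8a passed in cluster 4 (-2.31, edgeR adjusted p = 0.00410). Over all cells 0 of 12659 genes (0%) passed in edgeR, with 516 at an unadjusted p under 0.05 and 38 by DESeq2, and 210 passed in edgeR without ICI 4. In sums over all cells, fewer cells of a type and less RNA per cell cannot be told apart. The fit takes the spread among ICI libraries as that of the lone isotype library. Of the 5 members, Zbtb7b and Runx3 were higher than the isotype value in 4 of 4 ICI libraries, and Cd8a and Cd8b1 were lower in 4 of 4. With 1 isotype library such an order can easily arise by chance, and how many of all genes show it was not counted.

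Zbtb7b over all cells had 48.3, 38.4, 28.8 and 10.0 CPM in ICI 1 to ICI 4 and 6.15 CPM in the isotype library (2.21 on the log2 scale, SE 0.88, edgeR adjusted p = 0.817). ICI 4 lay closer to the isotype library than to the other ICI libraries. Cd8a had 151, 150, 180 and 371 CPM in ICI 1 to ICI 4 and 530.5 CPM in the isotype library (-1.39, SE 0.60, edgeR adjusted p = 0.817, over alternatives 0.0422 to 0.9998), and without ICI 4 its change was -1.85 with the lowest of these p-values. Cd8b1 had 110, 118, 159 and 221 CPM in ICI 1 to ICI 4 and 273 CPM in the isotype library (-0.92, SE 0.48, adjusted p = 0.817 by edgeR). ICI 4 was again the ICI library nearest to the isotype library for both chains.

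Runx3 had 94.8, 208, 206 and 80.2 CPM in ICI 1 to ICI 4 and 68.6 CPM in the isotype library (0.99, SE 0.67, edgeR adjusted p = 0.817). Cd4 had 236, 141, 117 and 148 CPM in ICI 1 to ICI 4 and 175 CPM in the isotype library, which lay inside the ICI range (-0.23, SE 0.39, edgeR adjusted p = 0.860). By cells, Cd8a was seen in 11.4%, 11.6%, 13.8% and 40.8% of cells in ICI 1 to ICI 4 and in 51.8% in the isotype library. Runx3 was thus high in ICI 2 and ICI 3 and similar in the other 3 libraries.

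Within clusters the same split ran through the T cells. Zbtb7b in cluster 0 had 59.2, 56.1, 51.8 and 15.8 CPM in ICI 1 to ICI 4 and 4.16 CPM in the isotype library (3.27, SE 1.11, edgeR adjusted p = 0.864), where it rested on 2 UMIs. In effector cluster 1 it had 81.8, 58.3, 33.5 and 15.5 CPM in the ICI libraries and 10.7 CPM in the isotype library, and in regulatory cluster 4, where it was too sparse to test, 68.4, 64.2, 60.9 and 18.1 CPM and 14.4 CPM. In cluster 6 it varied little, with 17.2, 23.9, 22.6 and 16.1 CPM in the ICI libraries and 13.5 CPM in the isotype library. The isotype values of clusters 1, 4 and 6 rested on 2, 2 and 5 UMIs. The place of the isotype library below ICI 4 thus rests on few counts.

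Cd8a was highest in the isotype library even in clusters that carry little of it. In cluster 0 it had 13.9, 45.4, 49.1 and 23.5 CPM in ICI 1 to ICI 4 and 156 CPM in the isotype library (-2.43, SE 0.55, edgeR adjusted p = 0.864). In cluster 4 it had 21.7, 0, 15.2 and 88.8 CPM in the ICI libraries and 216 CPM in the isotype library, and in cluster 6, of gamma-delta T-like cells, 0, 2.66, 11.8 and 52.7 CPM and 181 CPM. Without ICI 4, Cd8a passed the threshold in clusters 4 (-4.03) and 6 (-4.86), as did Cd4 (-4.09), Cd8b1 (-4.80) and Runx3 (0.999) in cluster 6 and Runx3 in cluster 5 (2.64). These fits take ICI 1 to ICI 3 as separate samples. For Cd8a in cluster 4 they rest on 7, 0 and 2 UMIs in ICI 1 to ICI 3 and 30 in the isotype library. In cluster 6 the Cd8a counts were 0, 2 and 12 UMIs in ICI 1 to ICI 3 and 67 in the isotype library. Effector cluster 1, where 26.1% of cells held Cd8a, differed less, with 220, 453, 463 and 356 CPM in ICI 1 to ICI 4 and 467 CPM in the isotype library. Cluster 3, where 90.8% of cells held Cd8a, was not fitted by itself, and its Cd8a ranged from 724 to 1045 CPM over the 5 libraries.

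In those clusters the 12 double-positive thymocyte genes were, like Cd8a, highest in the isotype library. Among the ICI libraries, ICI 4 was the highest for both Cd8a and the thymocyte genes in clusters 4 and 6. In cluster 0 ICI 4 was the highest for the thymocyte genes and ICI 3 for Cd8a, and in cluster 1 it was ICI 1 and ICI 3. The 12 genes summed to 124, 48.1, 68.2 and 146.5 CPM in cluster 0 of ICI 1 to ICI 4 and 603 CPM in the isotype library. The sums were 137, 64.2, 60.9 and 193 CPM and 634 CPM in cluster 4, and 155, 59.8, 40.3 and 289 CPM and 679 CPM in cluster 6. In macrophage-like cluster 7 they came to 179, 42.1, 44.0 and 252 CPM in ICI 1 to ICI 4 and 1238 CPM in the isotype library, and in cluster 10 to 93.9, 107, 56.2 and 112 CPM and 246 CPM. The isotype library was thus the highest in clusters that are not thymocytes. The part of thymocyte RNA in the Cd8a values was not tested, and treatment and library cannot be told apart for the isotype sample.

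**Figure D5:**
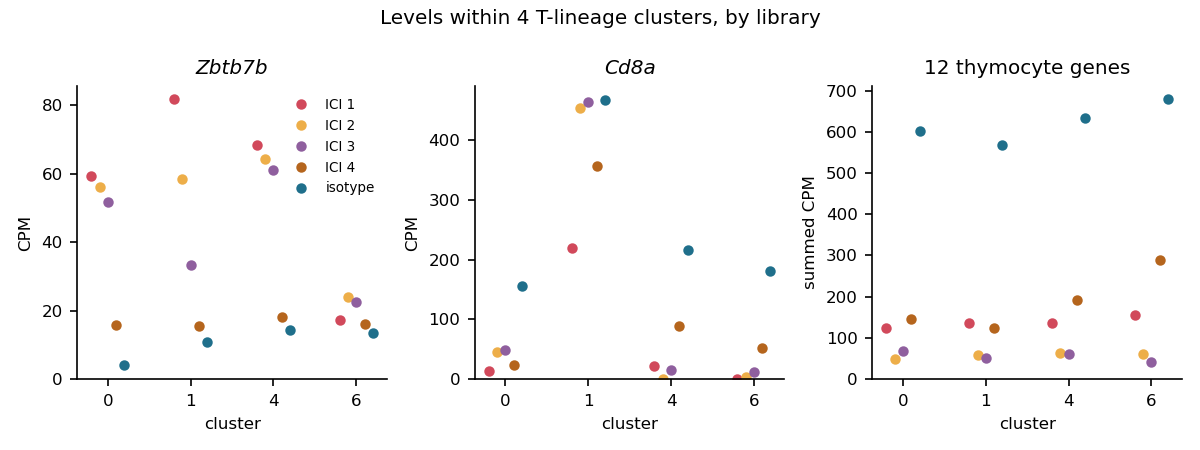
Zbtb7b and Cd8a in CPM and the summed CPM of 12 double-positive thymocyte genes (vertical axes) in T-lineage clusters 0, 1, 4 and 6 (horizontal axes), 1 point per library with ICI libraries left of the isotype library. In each of these clusters the isotype library is the lowest for Zbtb7b and the highest for Cd8a and for the thymocyte genes, and for Zbtb7b ICI 4 is the lowest ICI library. The isotype values of Zbtb7b rest on 2 UMIs in clusters 0, 1 and 4 and on 5 UMIs in cluster 6.

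In the thymocyte-like clusters the isotype library was again the lowest for Zbtb7b and the highest for Cd8a, while the order among the ICI libraries was another for Cd8a. Over clusters 2 and 11 Zbtb7b had 121, 56.3, 40.6 and 10.3 CPM in ICI 1 to ICI 4 and 6.42 CPM in the isotype library, on 26, 2, 1 and 25 UMIs in the ICI libraries and 7 in the isotype library. Cd8a had 481, 169, 812 and 780 CPM in the ICI libraries and 1338 CPM in the isotype library. Runx3 there had 51.3, 197, 40.6 and 77.6 CPM in ICI 1 to ICI 4 and 45.9 CPM in the isotype library, which lay within the ICI range. Both ends of that range rest on few counts, 7 UMIs in ICI 2 and 1 in ICI 3, from 22 cells each. Their Cd8a values rest on 6 and 20 UMIs. In clusters 2, 5 and 11 together the 12 double-positive thymocyte genes summed to 1569, 81.5, 210 and 1956 CPM in ICI 1 to ICI 4. They summed to 2317 CPM in the isotype library, so ICI 2 and ICI 3 held few such transcripts. In cycling cluster 5, where ICI 2 had too few cells, Runx3 had 42.1, 180 and 34.9 CPM in ICI 1, ICI 3 and ICI 4 and 15.9 CPM in the isotype library (2.18, SE 1.11, edgeR adjusted p = 0.99996). The background of calls over all genes was 0% in the T-lineage set and clusters 0 and 6, 0.0107% in cluster 1, 0.144% in cluster 4, 0.0316% in cluster 5 and 0.0321% in clusters 2 and 11, and no member was among them.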

How the data were processed

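Single-cell RNA libraries from a droplet 5′ kit were made of CD45+ thyroid cells in 4 ICI pools and 1 isotype pool, per the labels' protocols and the series design. The authors deposited raw UMI counts of 18767 genes in 10275 cells, and the UMI sum of all 10275 cells equalled the deposited cell table. Cell Ranger, Seurat and build mm10 are named in the submitters' processing notes, without versions. The deposited cell table gives, per the file headers, a mitochondrial percent for each cell (highest 25%), phase calls and 17 clusters at resolution 0.4. The authors' clusters were kept, and their numbers were tied to cell types by markers raised at least 1.5-fold (pseudocount 10 CPM). The 5 genes, the gene lists, the marker lists and the cluster sets were chosen with earlier results of these data known.

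Counts were summed per library, or per library and coreceptor class, over sets with at least 20 cells. edgeR 4.0.16 in R 4.3.3 fitted quasi-likelihood models (TMM scaling, filterByExpr, Benjamini-Hochberg over all genes tested, threshold 0.05), with the library as a block between classes because both classes come from each library. DESeq2 1.42.0 was an alternative. Shares carry exact Clopper-Pearson 95% intervals and the limit for a count of 0 is 3 counts. Intervals and limits cover counting error only. Library shares were tested by two-sided exact permutation. The pipeline was checked on simulated counts.

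Named genes were the 5 members, the 10 largest called changes in each direction between T-lineage classes (5 in each thymocyte-like comparison) with every library on 1 side, leaving out receptor segments, mitochondrial, ribosomal protein and unnamed genes, up to 4 genes of each list, and the 5 genes most like each member. The alternatives were RLE scaling, removal of receptor, ribosomal and mitochondrial genes before scaling, no filter, DESeq2, Cd8b1 as the one CD8 gene, other limits for likeness, at least 2 UMIs per coreceptor, no Cd3 requirement, thinning to 1000 UMIs, removing shared barcodes, summing ICI 1 to ICI 3, ICI libraries only, no block and leaving out each library. Cluster 1 by itself, clusters 3 and 9 left out, clusters 2, 5 and 11 left out of the sums over all cells, and ICI 4 by itself against the isotype library were chosen after seeing the data. Lck, Lat and Ptprc, named by the rule for 1 list with no called member, are not described. Some genes that the rule names are not reported here.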

Additional observations from a re-analysis of the deposited data

Results flagged for a closer look

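Among the 4 ICI libraries, 49 groups of values were examined for a library far from the other 3, and 6 were found. The rule flags about 1 in 20 groups of independent values. Many of these groups share genes or cells, so no excess over chance can be read from the count. ICI 4 was far above the others for Cd8a over all cells, with 371 CPM against 150 to 180, for the share of cells with Cd8a, with 40.8% against 11.4% to 13.8%, and for the share with Cd8b1, with 41.7% against 11.2% to 13.2%. ICI 4 was far below the others for Zbtb7b in cluster 0, with 15.8 CPM against 51.8 to 59.2, and in cluster 4, with 18.1 CPM against 60.9 to 68.4. ICI 1 was far above the others for Cd4 in the T-lineage clusters, with 348 CPM against 163 to 193. In 5 of the 6 the library is ICI 4, which, like the isotype library, held Ptprc in all cells (100%), few or no Xist UMIs (4 and 0) and many UMIs of the globin gene Hbb-bs (26385 and 3218, against 0 in each of ICI 1 to ICI 3). The part of these library differences in the values was not tested.

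The change of Cd4 between ICI and isotype cells ran in opposite directions in clusters 1 and 6. In effector cluster 1 all 4 ICI libraries were above the isotype library (0.20 on the log2 scale), and in gamma-delta T-like cluster 6 all 4 were below it (-1.89). The cluster 6 values rest on 6, 4, 1 and 33 Cd4 UMIs in ICI 1 to ICI 4 and 32 in the isotype library. ICI 4, at 75.7 CPM, lay close to the isotype library, at 86.6 CPM. The gap of 2.09 was not tested, and neither change passed the threshold.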

How the results depend on the processing

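Between CD8-only and Cd4-only T-lineage cells, the 526 genes called became 228 by DESeq2, 877 with no filter, 158 with cells thinned to 1000 UMIs, 337 in cluster 1 by itself, 252 with clusters 3 and 9 left out, and 232 to 471 with a library left out. Without the replicate block for the library the count was 13, Zbtb7b was at -2.73 (adjusted p = 0.145) and Runx3 at 0.56, and neither passed. Runx3 also missed the threshold thinned (0.68), in cluster 1 (0.049) and without clusters 3 and 9 (0.61), and ranged from 0.47 to 0.82 with a library left out. Itm2a was at 0.81 in cluster 1. Zbtb7b could not be fitted without ICI 4, at 2 or more UMIs, thinned, or in cluster 1, where it was filtered out.

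In the thymocyte-like clusters the CD8-only against Cd4-only count of 593 became 299 by DESeq2, 1285 with no filter, 110 with no replicate block, 311 at 2 or more UMIs, 120 thinned and 2 in ICI libraries, and 2 to 992 with a library left out. Runx3 was at 0.45 in ICI libraries, and -1.15 to 0.45 with a library left out. The Cd4-only against both count of 1085 became 652 (DESeq2), 401 (no replicate block), 212 (thinned) and 461 (ICI libraries), and 144 to 2128 with a library left out, and Runx3, at 1.19, passed with no filter (1.11) and without ICI 1 (0.94), and was at 0.64 to 0.94 with a library left out. The CD8-only against both count of 93 became 6 by DESeq2, 177 with no filter, 0 with no replicate block, 22 at 2 or more UMIs, 0 thinned, 46 in ICI libraries and 16 to 294 with a library left out, and Cd74 was at 0.16 thinned. The cause of these shifts was not tested.

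Between ICI and isotype cells, DESeq2 called 38 genes over all cells, and leaving out a library gave 0 to 210. Cd8a over all cells ranged from -1.85 to -1.22 and passed without ICI 4. With no filter Cd4 in cluster 0 was at 0.017 and Cd8a in cluster 4 at -2.31, past the threshold. With a library left out, Cd4 ranged from -0.12 to 0.039 in cluster 0, from -0.065 to 0.16 in cluster 5 and from -0.31 to 0.043 in the T-lineage set. Cd8a in cluster 4 ranged from -4.03 to -2.13 and Runx3 in cluster 5 from 1.12 to 2.64. In cluster 6 Cd4 ranged from -4.09 to -1.34, Cd8a from -4.86 to -3.07, Cd8b1 from -4.80 to -2.93 and Runx3 from 0.61 to 0.999, and the calls in clusters 4, 5 and 6 came without ICI 4, apart from Cd8a in cluster 4 with no filter. No paired analysis was possible because the isotype group has 1 library.

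Thinned, cells with both coreceptors were 1.72% in ICI 1, 3.79% in ICI 4, 12.2% in the isotype library, 1.101% in T-lineage, 14.5% in thymocyte-like and 0.912% in other clusters. With Cd8b1 as the one CD8 gene they were 15.9% in ICI 4, 28.8% in the isotype library, 3.94% in T-lineage and 41.1% in thymocyte-like clusters. Thinned cluster 11 held Cd4, Cd8a and Cd8b1 in 47.8%, 84.7% and 70.7% of cells. ICI 4 by itself against the isotype library gave 5.02 points for CD8 only and -0.548 for neither. Of 5 companion genes, 3 for Cd8a, 3 for Cd8b1 and 2 for Zbtb7b were shared at 10 CPM, and 0 for Zbtb7b at a pseudocount of 1.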
